A study of Homo sapiens with 14 samples.

Results

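K01 is one of the K562 lines of the series, K562 being a human erythroleukaemia line, and the comparison described here set 2 K01 libraries treated with TETi76 against 2 treated with the solvent DMSO. These 4 libraries, of 14 in the series, were taken by their labels, and no measured value entered the choice. The TETi76 cells received 12.5 µM of the compound, which the series names as an inhibitor of TET dioxygenases, and both groups were harvested after 24 h. The series text speaks of isogenic TET2+/+ and TET2-/- K562 cells. The K18 libraries, not compared here, carry the TET2-/- label, while K01 has no genotype in its own label. All libraries compared come from the K01 line. The 2 K18 libraries, treated with DMSO for 24 h, entered the choice of genes tested. They also entered the estimate of spread that all groups share, on which each p-value rests. A further 4 K01 libraries supplied a second comparison with no library in common: 2 with 100 µM ascorbate alone and 2 with 12.5 µM TETi76 and 100 µM ascorbate, also at 24 h. Like the K18 libraries, these 4 entered the choice of genes tested and the shared estimate of spread. Polyadenylated RNA was sequenced in all libraries named here. Replicates are numbered in the labels without being called separate cultures, so the spread behind each p-value may be only technical.

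TET enzymes oxidise methylated cytosine in DNA and belong to a family of iron-dependent dioxygenases that consume 2-oxoglutarate, a metabolite made by isocitrate dehydrogenases and by transaminases. Ascorbate keeps the iron of these enzymes reduced. A pair of stress programmes matters for what follows. NRF2 is a transcription factor that KEAP1 holds at low levels until electrophiles or oxidants modify KEAP1, after which NRF2 turns on detoxification, glutathione and iron storage genes. ATF4, made when the integrated stress response slows translation, drives amino acid synthesis, amino acid import and tRNA charging genes. K562 cells carry the BCR-ABL1 kinase, which signals through STAT5, and they make embryonic and fetal globins.

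Values were scaled to transcript length and library size and are called FPKM here. Depth in the 4 libraries was approximately 6520000 to 8560000 reads, inferred from the size of the smallest steps between low values. Replicates correlated at Pearson's r of 0.986 for DMSO and 0.982 for TETi76 across genes on the log2 scale. For ascorbate r was 0.981 and for TETi76 with ascorbate 0.976. All 15 K562 marker genes were detected in the 4 libraries, with summed levels of 9157 and 10480 FPKM in DMSO and 8600 and 8898 FPKM under TETi76. Among lymphoid markers 6 of 13 were listed at 0 in the 4 libraries, and the sum was 14.9 and 14.8 FPKM in DMSO and at most 23.65 FPKM under TETi76. Short RNA entries took 37.7% to 39.8% of each library's FPKM sum and were left out, as were entries named by a number, which left 23851 genes.

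TETi76 changed a large part of the K01 transcriptome. The test covered 12528 genes that reached 1 FPKM in 2 or more libraries, and limma called 2921 (23.3%) at a Benjamini-Hochberg adjusted p under 0.05. Of these, 1204 rose (9.61% of those tested) and 1717 fell (13.7%). At least a 2-fold change on the log2(FPKM + 1) scale was seen in 513 called genes, 231 higher and 282 lower, and at least a 4-fold change in 44, 26 higher and 18 lower. The median log2 change over all genes tested was -0.0092, and 75.8% of genes lay within 0.5 of 0. Scaling moved this balance: of the called genes 41.2% were higher as deposited, 50.7% with quantile normalization and 49.8% with equal sums. Leaving out DMSO replicate 1 gave 1681 called genes and DMSO replicate 2 gave 1669. Leaving out TETi76 replicate 1 gave 1794 and TETi76 replicate 2 gave 1765. Each gene list named here is read against the shares of 9.61% higher and 13.7% lower and against that median.

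**Figure D1:**
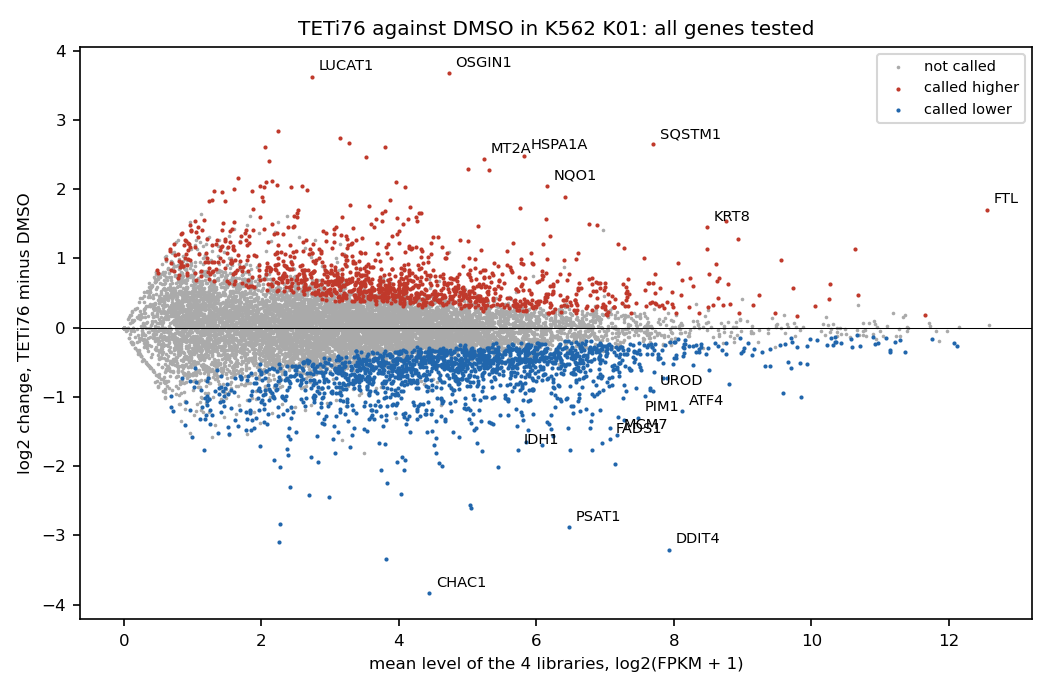
Change under TETi76 (log2, vertical axis) against the mean level of the 4 libraries (log2(FPKM + 1), horizontal axis) for the 12528 genes tested in K01; red and blue points passed an adjusted p under 0.05. OSGIN1 and LUCAT1 lie at the top and CHAC1 at the bottom, FTL stands far to the right at a log2 change of 1.71, and DDIT4 and PSAT1 are abundant genes near the bottom.

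NRF2 target genes of detoxification rose under TETi76. Of 20 tested members of that list, 9 rose and 2 fell, with a median log2 change of 0.41. OSGIN1, an oxidative stress response gene that restrains growth, stood at 3.11 and 2.59 FPKM in DMSO and 46.7 and 49.7 FPKM under TETi76, a log2 change of 3.68 (SE 0.17, adjusted p = 1.26e-06). NQO1, which reduces quinones, went from 27.8 and 26.0 to 114 and 114 FPKM (log2 change 2.04, SE 0.095, adjusted p = 1.36e-06). In both genes the TETi76 libraries lay far above the DMSO libraries and close to each other. The aldo-keto reductase AKR1C1 rose by 1.57 (SE 0.086) to 98.6 and 112 FPKM, the epoxide hydrolase EPHX1 by 1.11 (SE 0.12) and the iron-binding protein PIR by 1.32 (SE 0.22). Reads of AKR1C1 may be shared with its near-identical relatives AKR1C2 and AKR1C3. HMOX1, the heme oxygenase that is a standard NRF2 target, was below the filter in these libraries.

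Of the regulators, SQSTM1 changed most. Transcripts of NRF2 (NFE2L2) were 38.7 and 42.9 FPKM in DMSO and 34.8 and 35.9 FPKM under TETi76 (log2 change -0.20, SE 0.092, adjusted p = 0.15), so they did not pass the test. KEAP1 stood at 50.2 and 39.9 FPKM in DMSO and 48.5 and 47.0 FPKM under TETi76 (adjusted p = 0.652), with overlapping groups. SQSTM1 (p62), which carries cargo to autophagy and can bind KEAP1 away from NRF2, was at 61.1 and 51.7 FPKM in DMSO and 359 and 356 FPKM under TETi76, a log2 change of 2.65 (SE 0.075, adjusted p = 1.86e-07). MAFK, a small MAF protein that pairs with NRF2 on DNA, rose by 1.04 (SE 0.20). In all, 3 of the 11 NRF2 regulators and partners rose and 0 fell by limma, and at an unadjusted p under 0.05 these were 6 and 0.

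Glutathione genes moved in both directions. The rate-limiting ligase subunits GCLC and GCLM rose by 1.33 (SE 0.13) and 1.01 (SE 0.11), the reductase GSR by 0.99 (SE 0.078), the thioredoxin reductase TXNRD1 by 1.08 (SE 0.070), thioredoxin TXN by 0.78 (SE 0.051) and sulfiredoxin SRXN1 by 1.16 (SE 0.11). The peroxiredoxin PRDX1, which removes hydrogen peroxide, rose from 517 and 498 to 1015 and 987 FPKM (log2 change 0.98, SE 0.043). CTH and CBS, which make cysteine from homocysteine, changed by -2.40 (SE 0.14) and -1.77 (SE 0.094). The cystine importer SLC7A11 went from 10.98 and 10.8 to 5.24 and 4.33 FPKM (log2 change -1.05, SE 0.13, adjusted p = 0.000683). Its partner chain SLC3A2, which also serves other amino acid transporters, rose from 162 and 183 to 207 and 219 FPKM (log2 change 0.31, SE 0.066), a call lost without DMSO replicate 1 or TETi76 replicate 2. CHAC1, which degrades glutathione, fell most of all and is given with the ATF4 genes. The list as a whole had 11 of 34 members higher and 9 lower, with a median of -0.06.

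A short piece of promoter is shown for 3 genes of these lists to place the DNA letters that NRF2 is known to bind beside the changes. The motif searched was the antioxidant response element core TGACNNNGC, on both strands of RefSeq windows (GRCh38.p14) from 250 bases before to 50 after each gene start. Windows were given for 17 of 20 tested detoxification genes, and 5 (29.4%) held a match, against 16.1% of the 27305 genes in the promoter table. For the NRF2 regulators and partners 9 of 11 had a window, and 2 (22.2%) held a match. Among tested genes with a window the share was 19.5%, given only for scale because 78.2% of tested genes had one. Only 76.5% of the glutathione list had a window, too few for its share to be used. Of the NRF2 and glutathione lists, the called members with a match upstream of the start and the largest changes were CBS, EPHX1 and TXNRD1. OSGIN1, NQO1, AKR1C1, GCLC, SRXN1 and SQSTM1, which rose, had either no window or no match. ABCC4, of the detoxification list, held an upstream match and fell (log2 change -0.59). Capitals mark the match, read 5′ to 3′ along the gene's strand.
CBS, chr21:43076422-43076490, minus strand: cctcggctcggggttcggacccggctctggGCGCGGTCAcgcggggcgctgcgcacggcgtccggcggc
EPHX1, chr1:225825246-225825314, plus strand: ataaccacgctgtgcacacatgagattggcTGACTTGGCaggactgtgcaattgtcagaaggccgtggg
TXNRD1, chr12:104215650-104215718, plus strand: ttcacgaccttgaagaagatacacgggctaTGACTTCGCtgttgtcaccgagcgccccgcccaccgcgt
EPHX1 and TXNRD1 rose, with the core in the direction of the gene, and CBS fell, with the core on the opposite strand. This 9-base core is short, and a match is a description of the letters in the window.

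Iron storage genes rose to very high levels. The ferritin light chain FTL was at 2887 and 2769 FPKM in DMSO and 9313 and 9134 FPKM under TETi76 (log2 change 1.71, SE 0.036, adjusted p = 2.68e-08). The heavy chain FTH1 went from 960.3 and 1037 to 2193 and 2188 FPKM (log2 change 1.13, SE 0.045). The difference in FPKM for FTL was the largest rise of any gene called without overlap between the groups. Both ferritins have processed pseudogenes, so part of their reads may be placed uncertainly. TFR2, the transferrin receptor that senses iron, fell by 1.28 on the log2 scale (SE 0.087). In all, 3 of 20 iron genes rose and 4 fell, and 2 fell without TETi76 replicate 2. The metal-binding protein MT2A rose from 11.5 and 10.1 to 66.4 and 59.4 FPKM (log2 change 2.44, SE 0.17). Of 7 tested metallothionein and zinc genes, 2 rose and 1 fell, with a median of 0.11. The gene that fell was SLC30A10 (log2 change -1.51, SE 0.29). With a filter at an FPKM of 5, or in a fit on the 4 libraries alone, 1 rose.

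Heat-shock chaperones rose in 13 of 28 members and fell in 2, with a median of 0.29. HSPA1A, the inducible form of HSP70, stood at 18.3 and 14.1 FPKM in DMSO and 92.9 and 96.7 FPKM under TETi76 (log2 change 2.49, SE 0.12, adjusted p = 1.36e-06). HSPA1B gave 12.8 and 12.4 FPKM in DMSO and 61.9 and 67.4 FPKM under TETi76, and its reads cannot be fully told from those of HSPA1A. The co-chaperones DNAJB1 and BAG3 rose by 1.10 (SE 0.073) and 1.07 (SE 0.13). The constitutive cytosolic chaperone HSPA8 rose from 687 and 679.7 to 1020.3 and 1007 FPKM, a log2 change of 0.57 (SE 0.041). The mitochondrial chaperone HSPA9 fell by 0.73 (SE 0.051). HSF1, the factor that drives heat-shock genes, was at 41.9 and 44.3 FPKM in DMSO and 37.0 and 39.9 FPKM under TETi76 and did not pass (adjusted p = 0.178).

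Heat-shock factor binds alternating GAA and TTC triplets. The heat-shock element sought on both strands of the same windows was GAA, TTC and GAA, each spaced by 2 bases. Windows were given for 24 of the 28 list members, and 8 (33.3%) held a match, against 0.608% of the 27305 genes of the promoter table. Not all of the 8 were called. HSPA8, SERPINH1 (a collagen chaperone, log2 change 0.38, SE 0.068) and HSP90AA1 (log2 change 0.33, SE 0.052) were the called members with a match upstream and the largest changes. HSPA1A, HSPA1B, DNAJB1 and BAG3, which rose more, had either no window or no match. Capitals mark the match.
HSPA8, chr11:123062324-123062386, minus strand: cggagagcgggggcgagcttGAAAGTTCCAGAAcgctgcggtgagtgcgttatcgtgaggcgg
SERPINH1, chr11:75562147-75562219, plus strand: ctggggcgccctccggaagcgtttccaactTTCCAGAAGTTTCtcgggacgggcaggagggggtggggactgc
HSP90AA1, chr14:102087090-102087162, minus strand: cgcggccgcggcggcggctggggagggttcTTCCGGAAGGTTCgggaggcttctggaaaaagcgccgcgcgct
HSPD1, the mitochondrial chaperonin, also held upstream matches and fell (log2 change -0.31, SE 0.049). The 3 genes shown rose, HSPA8 with the motif in the direction of the gene and SERPINH1 and HSP90AA1 with it on the opposite strand.

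Lysosomal genes rose together. Of 37 tested lysosome and V-ATPase genes, 18 rose and 1 fell, with a median of 0.38. Without DMSO replicate 2, 11 rose, and the fall was lost without any 1 of the 4 libraries. The protease CTSL went from 61.0 and 51.7 to 153 and 166 FPKM (log2 change 1.49, SE 0.10), CTSB rose by 1.08 (SE 0.095) and the galactosidase GLA by 0.99 (SE 0.095). Prosaposin PSAP, a precursor of lipid-degrading cofactors, reached 505 and 492 FPKM from 306 and 301. Among autophagy genes 5 of 30 rose and 3 fell, SQSTM1 and the membrane protein GABARAPL1 (log2 change 1.30, SE 0.14) leading. Without DMSO replicate 2 or TETi76 replicate 1 only 3 rose, and 0, 1 and 1 fell without DMSO replicate 1, TETi76 replicate 1 and TETi76 replicate 2. Proteasome genes rose in 12 of 43 members by small amounts, such as PSMB7 at 0.51 (SE 0.069). That count was 7 without either DMSO library and 24 with quantile normalization.

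Immediate early genes are induced by growth and stress signals within minutes. In a list that joins them with AP-1 and MAP kinase feedback genes, 16 of 34 tested members rose and 2 fell. The median was 0.55. Of these members 1 fell without DMSO replicate 1, DMSO replicate 2 or TETi76 replicate 1, and 0 with quantile normalization. Among subunits of the AP-1 transcription factor, JUN rose from 12.2 and 11.7 to 29.7 and 32.9 FPKM (log2 change 1.32, SE 0.11). FOSL1 rose by 1.61 (SE 0.17) and FOS by 1.11 (SE 0.16), whereas ATF3, of the same list, fell (log2 change -0.37). FOSB and FOSL2 started near 0, FOSB at 0 and 0.315 FPKM in DMSO and 4.28 and 4.03 FPKM under TETi76, so their folds are not given. IER3, a stress-induced survival gene, rose from 9.91 and 9.86 to 51.9 and 52.8 FPKM (log2 change 2.29, SE 0.19). The cell cycle inhibitor CDKN1A (p21) rose by 1.66 (SE 0.11), from 5.08 and 5.88 to 19.5 and 19.4 FPKM. GADD45B, a stress gene, went from 1.33 and 1.98 to 14.4 and 17.2 FPKM (log2 change 2.67, SE 0.26). The noncoding RNA LUCAT1 was listed at 0 in both DMSO libraries and at 12.5 and 10.3 FPKM under TETi76.

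Transcripts of ATF4 and of many genes of its circuit fell. ATF4 itself stood at 387 and 388 FPKM in DMSO and 162 and 172 FPKM under TETi76 (log2 change -1.21, SE 0.055, adjusted p = 1.26e-06). Its relatives and partners ATF5, CEBPG and TRIB3 changed by -1.70 (SE 0.16), -1.59 (SE 0.12) and -1.77 (SE 0.091). CHAC1 went from 42.7 and 36.7 to 2.16 and 1.56 FPKM, a log2 change of -3.83 (SE 0.17, adjusted p = 1.19e-06). DDIT4, an inhibitor of the growth kinase mTORC1, went from 437 and 441 to 46.8 and 46.5 FPKM (log2 change -3.21, SE 0.10). INHBE, a hormone subunit, went from 24.6 and 24.5 to 1.004 and 2.17 FPKM (log2 change -3.34, SE 0.26). SESN2, another brake on mTORC1, fell by 2.02 (SE 0.086). The groups lay far apart in each of these genes. Of 24 tested members of the ATF4 circuit, 15 fell, 1 rose and the median was -0.43. The member that rose was NDRG1, a stress gene also induced by low oxygen, at 0.338 and 0.640 FPKM in DMSO and 4.35 and 5.31 FPKM under TETi76. BBC3 (PUMA), a BH3-only death protein, went from 36.7 and 37.6 to 9.32 and 8.33 FPKM (log2 change -1.96, SE 0.13).

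Amino acid synthesis genes fell as a block. Of 19 tested genes of serine, asparagine, proline and one-carbon synthesis, 17 fell, with a median of -1.21, and the count was 17 without any 1 of the 4 libraries. By limma 0 rose, also at an unadjusted p under 0.05. PSAT1, the transaminase of serine synthesis, was at 155 and 156 FPKM in DMSO and 19.5 and 20.9 FPKM under TETi76 (log2 change -2.89, SE 0.088, adjusted p = 2.26e-07). PHGDH, which opens that pathway, fell by 1.42 (SE 0.11), and SHMT2 and MTHFD2, which pass serine carbons to folate in mitochondria, fell by 1.14 (SE 0.084) and 1.97 (SE 0.080). Asparagine synthetase ASNS went from 183 and 191 to 59.2 and 56.8 FPKM (log2 change -1.67, SE 0.071). The proline enzyme PYCR1 changed by -1.17 (SE 0.076). PCK2, a mitochondrial enzyme that feeds this synthesis, went from 57.7 and 53.0 to 8.04 and 8.99 FPKM (log2 change -2.57, SE 0.14).

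Import and charging of amino acids followed the same direction. Of 17 tested transporters 10 fell and 2 rose, with a median of -0.72. The glycine transporter SLC6A9 fell by 2.06 (SE 0.15), the alanine and serine transporter SLC1A4 fell by 1.91 (SE 0.096), the cationic transporter SLC7A1 by 1.69 (SE 0.10) and the leucine transporter SLC7A5 by 1.24 (SE 0.077). The count of transporters that rose was 1 without DMSO replicate 1, DMSO replicate 2 or TETi76 replicate 1 and 0 without TETi76 replicate 2. Of 24 cytosolic tRNA synthetase genes and partners, 18 fell and 0 rose by limma (1 at an unadjusted p under 0.05), with a median of -0.72. A member was called higher in the median-ratio, quantile and equal-sum scalings, in the filter at an FPKM of 5 and without DMSO replicate 2, 1 in each. WARS (tryptophan) went from 198 and 195 to 70.6 and 71.7 FPKM (log2 change -1.45, SE 0.056), and CARS (cysteine), GARS (glycine) and AARS (alanine) fell by 1.66, 1.33 and 1.29 (SE 0.072, 0.078 and 0.058). Synthetases of mitochondria had 2 of 17 members lower and 1 higher, with a median of -0.13, and the rise was lost without any 1 of the 4 libraries. TARS2 was the member with the largest fall, -1.02 (SE 0.12).

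ATF4 pairs with C/EBP proteins on amino acid response elements, sought here as the core TGATGNAA on both strands of the RefSeq windows. Windows were given for 20 of 24 ATF4 circuit genes, of which 5 (25.0%) held a match, and for 15 of 17 transporters, of which 5 (33.3%) held one. The share was 4.46% of the 27305 genes of the promoter table. Too few members of the synthesis and tRNA synthetase lists had a window (63.2% and 66.7%) for their shares to be used. CHAC1, ASNS and CEBPG were the called members with an upstream match and the largest changes, and all fell. INHBE, DDIT4, PSAT1 and SESN2, which fell more than ASNS, had either no window or no match. Capitals mark the match.
CHAC1, chr15:40953232-40953299, plus strand: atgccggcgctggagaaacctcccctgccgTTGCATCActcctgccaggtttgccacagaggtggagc
ASNS, chr7:97872439-97872506, minus strand: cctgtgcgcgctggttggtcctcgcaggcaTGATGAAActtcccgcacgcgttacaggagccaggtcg
CEBPG, chr19:33374041-33374108, plus strand: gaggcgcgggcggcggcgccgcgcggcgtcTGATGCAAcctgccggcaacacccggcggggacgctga
The core runs with the gene in ASNS and CEBPG and on the opposite strand in CHAC1.

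**Figure D2:**
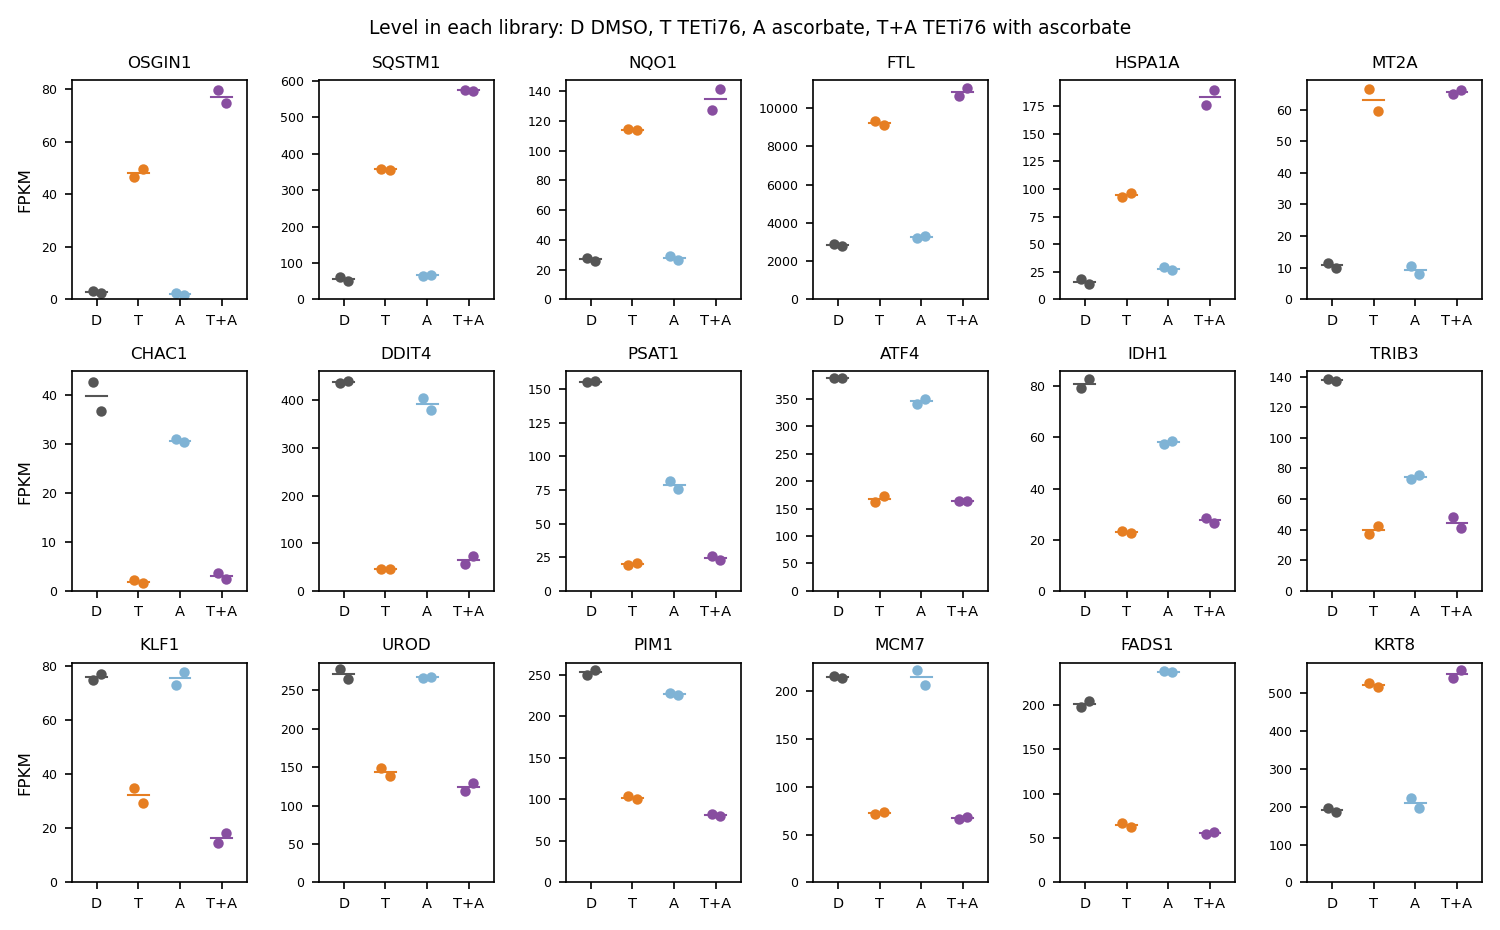
FPKM (vertical axes, starting at 0) of 18 genes in each K01 library for 4 treatments on the horizontal axis: DMSO (D), TETi76 (T), ascorbate (A) and TETi76 with ascorbate (T+A); points are libraries and bars are means of 2. For each gene both TETi76 libraries lie on the same side of both DMSO libraries, and both T+A libraries lie on that side of both A libraries.

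Part of the genes around 2-oxoglutarate, the cosubstrate of TET enzymes, fell. Cytosolic isocitrate dehydrogenase IDH1 stood at 79.1 and 82.7 FPKM in DMSO and 23.3 and 22.6 FPKM under TETi76 (log2 change -1.77, SE 0.085, adjusted p = 1.75e-06). Its mitochondrial counterpart IDH2 went from 61.4 and 63.9 to 29.8 and 30.7 FPKM (log2 change -1.03, SE 0.080, adjusted p = 3.41e-05). In both genes the groups were far apart relative to the replicates. The transaminases BCAT1 and GOT1 fell by 1.09 (SE 0.089) and 0.98 (SE 0.11), OGDH, which consumes 2-oxoglutarate, by 0.50 (SE 0.095), and the citrate carrier SLC25A1 by 0.88 (SE 0.080). The list of 26 joins enzymes that make 2-oxoglutarate with enzymes that consume it, carriers and neighbouring enzymes. Of its members 13 fell and 0 rose by limma (also 0 at an unadjusted p under 0.05), and the median was -0.48. PSAT1, GPT2, GOT1 and PHGDH stand in this list and in the serine list.

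TET transcripts themselves did not pass the test. TET1 was at 5.80 and 5.93 FPKM in DMSO and 4.16 and 4.25 FPKM under TETi76 (log2 change -0.40, SE 0.13, adjusted p = 0.0551), with no overlap between the groups, as in 63.3% of all genes tested. In the ascorbate comparison TET1 fell by 0.61 (SE 0.13, adjusted p = 0.00718), from 6.56 and 6.68 to 3.79 and 4.19 FPKM. TET2 was low, at 1.99 and 2.40 FPKM in DMSO and 1.80 and 1.90 FPKM under TETi76 (adjusted p = 0.65). TET3 was at 6.69 and 6.54 FPKM in DMSO and 5.83 and 5.48 FPKM under TETi76 (adjusted p = 0.398). The maintenance methyltransferase DNMT1 fell by 0.48 (SE 0.064), whereas the de novo enzyme DNMT3B rose by 0.44 (SE 0.080). The repair scaffold XRCC1 fell by 0.61 (SE 0.11). Of 13 methylation and demethylation genes 2 rose and 3 fell. The higher count was 1 without DMSO replicate 1, DMSO replicate 2 or TETi76 replicate 2. Among 28 other 2-oxoglutarate dioxygenases 6 rose and 3 fell. JMJD6, a lysyl hydroxylase of splicing factors, rose by 1.09 (SE 0.11), the histone demethylase KDM3A by 0.85 (SE 0.13), and KDM4A fell by 0.78 (SE 0.12). Without TETi76 replicate 2, 3 rose, and without any 1 of the 4 libraries 1 fell.

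DNA replication genes fell in 23 of 48 members and rose in 0 by limma (also 0 at an unadjusted p under 0.05), with a median of -0.33. The helicase subunit MCM7 was at 216 and 214 FPKM in DMSO and 71.9 and 73.6 FPKM under TETi76 (log2 change -1.55, SE 0.056), and MCM2 of the same ring fell by 0.71 (SE 0.065). CDC45, which activates that helicase, fell by 1.35 (SE 0.084), the polymerase subunits POLD1 and POLA1 by 1.17 (SE 0.090) and 0.95 (SE 0.11), and the sliding clamp PCNA by 0.57 (SE 0.072). Nucleotide synthesis genes fell in 17 of 31 members and rose in 2, with a median of -0.30. Thymidylate synthase TYMS fell by 1.04 (SE 0.098), and IMPDH2, which opens guanine synthesis, by 0.84 (SE 0.071). UPP1, which breaks uridine down, went the other way, from 0.784 and 1.83 to 17.8 and 11.05 FPKM (log2 change 2.74, SE 0.29).

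E2F factors control many S phase genes, and their site was sought as TTTNNCGC on both strands. Windows were given for 41 of 48 replication genes and 24 (58.5%) held a match, against 8.23% of the 27305 genes of the promoter table. That table includes noncoding genes. Of the tested genes only 78.2% had a window, so a share over them is not a usable background for any of these motifs. MCM7, POLA1 and CDT1 were the called members with an upstream match and the largest changes, and all fell (CDT1, which loads the helicase, by 0.68, SE 0.11). CDC45 and POLD1, which fell more than POLA1, had either no window or no match. Capitals mark the match, and the MCM7 stretch ends at the gene start.
MCM7, chr7:100101398-100101436, minus strand: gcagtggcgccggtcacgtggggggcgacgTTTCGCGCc
POLA1, chrX:24693751-24693818, plus strand: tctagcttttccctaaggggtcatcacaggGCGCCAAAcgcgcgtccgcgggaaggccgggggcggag
CDT1, chr16:88803546-88803613, plus strand: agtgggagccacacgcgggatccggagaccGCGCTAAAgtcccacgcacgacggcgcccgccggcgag
The MCM7 match shown begins 9 bases before its start in the direction of the gene, and POLA1 and CDT1 carry theirs on the opposite strand.

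Mitotic genes moved in both directions. Of 36 members 9 fell and 5 rose, with a median of -0.04. The anaphase activator CDC20 rose from 81.1 and 86.1 to 134 and 144 FPKM (log2 change 0.72, SE 0.065), and topoisomerase TOP2A fell by 0.54 (SE 0.059). Without DMSO replicate 1, 5 fell and 1 rose, without TETi76 replicate 1 or 2, 3 rose, and with quantile normalization 4 fell. Cyclins, kinases and arrest genes had 10 of 27 members lower and 3 higher. CDKN1A, GADD45B and the antiproliferative BTG2 (log2 change 1.14, SE 0.12) were the 3 that rose, and CCNG1 (-1.01, SE 0.059) and CDK2 (-0.57, SE 0.088) were among those that fell. Leaving out a library gave 4 to 6 lower, and 4 when it was DMSO replicate 2. Among NADPH and pentose phosphate genes 2 of 13 rose and 6 fell, and the malic enzyme ME1 rose by 1.07 (SE 0.15). The lower count was 3 without either DMSO library or TETi76 replicate 2. The proto-oncogene MYC fell from 138 and 148 to 113 and 116 FPKM (log2 change -0.31, SE 0.059, adjusted p = 0.00514), and did not pass with quantile normalization.

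Lipid synthesis genes fell. Of 23 fatty acid genes 13 fell and 1 rose, with a median of -0.48, and the rise was lost without DMSO replicate 1, TETi76 replicate 1 or TETi76 replicate 2. The desaturase FADS1 was at 198 and 205 FPKM in DMSO and 67.4 and 62.9 FPKM under TETi76 (log2 change -1.61, SE 0.058). Fatty acid synthase FASN and the desaturase SCD, which introduces the first double bond, fell by 1.01 (SE 0.067) and 1.02 (SE 0.053). Of 30 cholesterol genes 18 fell and 3 rose, with a median of -0.37, and 11 fell without TETi76 replicate 1. The regulators SREBF1 and SREBF2, whose protein products turn on these enzymes, fell by 1.04 (SE 0.090) and 0.62 (SE 0.089), and the synthase HMGCS1 by 0.64 (SE 0.080). The sterol regulatory element TCACNCCAC was sought in the RefSeq windows too. Of 22 fatty acid genes with a window 1 (4.55%) held a match, against 1.39% of the 27305 genes of the promoter table. Only 76.7% of the cholesterol list had a window. Among called members of both lists, SREBF2 alone held a match.

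Erythroid genes fell. In bulk RNA, fewer cells of a type and less RNA per cell cannot be told apart. Of 33 tested erythroid factors and red cell proteins 16 fell and 2 rose, with a median of -0.43, and 1 rose without DMSO replicate 2. KLF1, which activates adult red cell genes, was at 74.7 and 77.0 FPKM in DMSO and 35.0 and 29.3 FPKM under TETi76 (log2 change -1.22, SE 0.12). The cofactor LMO2, the factor NFE2 and the progenitor factor MYB fell by 1.05 (SE 0.10), 0.72 (SE 0.070) and 0.90 (SE 0.099), and TAL1 did not pass (log2 change 0.11, adjusted p = 0.539). SPI1 (PU.1), a myeloid factor that opposes GATA1, rose from 9.49 and 6.23 to 23.4 and 23.7 FPKM (log2 change 1.49, SE 0.16). The membrane skeleton proteins SPTB and ADD2 fell by 1.25 (SE 0.11) and 1.32 (SE 0.17).

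Globin and heme genes fell. Of 24 globin and heme genes 15 fell and 0 rose by limma (2 at an unadjusted p under 0.05), with a median of -0.44. Of them 9 fell without DMSO replicate 2, and 1 rose without DMSO replicate 2 or TETi76 replicate 2. UROD, the fifth enzyme of heme synthesis, went from 277 and 264 to 148 and 139 FPKM (log2 change -0.91, SE 0.062). The embryonic globin HBE1, among the most abundant messages of these cells, changed little in fold, from 4472 and 4787 to 3912 and 4063 FPKM (log2 change -0.21, SE 0.041, adjusted p = 0.00539). The fetal globin HBG2 was at 1553 and 2053 FPKM in DMSO and 1792 and 1936 FPKM under TETi76, with overlapping groups (adjusted p = 0.743), and shares most of its sequence with HBG1.

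Genes of the oncogenic signalling of K562 moved too. PIM1, a survival kinase that STAT5 induces, was at 250.1 and 255 FPKM in DMSO and 104 and 100.5 FPKM under TETi76 (log2 change -1.30, SE 0.051, adjusted p = 6.87e-07). STAT5A and STAT5B fell by 1.03 (SE 0.072) and 0.85 (SE 0.083), and the STAT5-induced feedback inhibitors SOCS2 and CISH by 0.88 (SE 0.071) and 0.75 (SE 0.095). SOCS1, of the same inhibitor family, rose from 3.69 and 1.62 to 17.8 and 18.9 FPKM (log2 change 2.47, SE 0.30). In the list, 10 of 19 members fell and 4 rose, with a median of -0.29.

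Cytoskeletal and keratin genes rose in part. Of 35 cytoskeleton genes 11 rose and 4 fell, with a median of 0.19, and 7 rose without TETi76 replicate 2. The filament protein VIM went from 266 and 299.7 to 687 and 695 FPKM (log2 change 1.29, SE 0.059), the actin-binding TPM4 rose by 1.73 (SE 0.069) and the adhesion protein ZYX by 0.97 (SE 0.086). The keratins KRT8, KRT18 and KRT19, usually read as epithelial, rose from 196 and 186, 201 and 164 and 63.7 and 58.6 FPKM to 527 and 517, 329 and 370.0 and 167 and 177 FPKM. Their log2 changes were 1.45, 0.94 and 1.48 (SE 0.063, 0.11 and 0.094), and they were the 3 of 5 tested stromal, epithelial and endothelial markers that rose. The summed level of all 15 such markers was 503.5 and 459.5 FPKM in DMSO and 1067 and 1104 FPKM under TETi76, and 3 of the 15 were listed at 0 throughout. KRT8, KRT18 and KRT19 were abundant in DMSO already, and EPCAM, an epithelial surface marker, stood at 41.7 and 49.4 FPKM in DMSO and 41.4 and 38.001 FPKM under TETi76 (adjusted p = 0.21). The collagens COL1A1, COL1A2 and COL3A1 and the cadherins CDH1 and CDH5 were below the filter. Whether other cells had a part in the keratin rise was not tested. Megakaryocyte markers summed to 83.1 and 108 FPKM in DMSO and 48.0 and 62.2 FPKM under TETi76. Of 6 tested megakaryocyte markers 2 fell and 1 rose. TUBB1, the platelet tubulin, fell by 1.49 (SE 0.20). ITGB3, a chain of the platelet fibrinogen receptor, rose from 0.509 and 0.262 to 1.41 and 1.36 FPKM, a call lost without any 1 of the 4 libraries. Without DMSO replicate 2 or TETi76 replicate 1, 1 fell. Myelomonocytic markers summed to 75.0 and 71.0 FPKM in DMSO and 85.6 and 80.2 FPKM under TETi76, with 0 of 9 tested members called by limma and 1 at an unadjusted p under 0.05.

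Energy genes divided. Of 75 nuclear genes of oxidative phosphorylation 30 fell and 3 rose, with a median of -0.16. The falls numbered 19 without DMSO replicate 2, and the rises 1 without DMSO replicate 1, 6 with quantile normalization and 5 with equal sums. NDUFV1, the subunit of complex I that takes electrons from NADH, was at 173 and 163 FPKM in DMSO and 75.3 and 71.4 FPKM under TETi76 (log2 change -1.18, SE 0.063), and NDUFS7 fell by 0.99 (SE 0.12). Glycolysis and hypoxia genes had 9 of 34 members higher and 5 lower, and 5 higher without DMSO replicate 2. Pyruvate kinase PKM, the last step of glycolysis, went from 232 and 215 to 492 and 492 FPKM (log2 change 1.13, SE 0.055), and the growth factor VEGFA fell by 1.37 (SE 0.11).

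**Figure D3:**
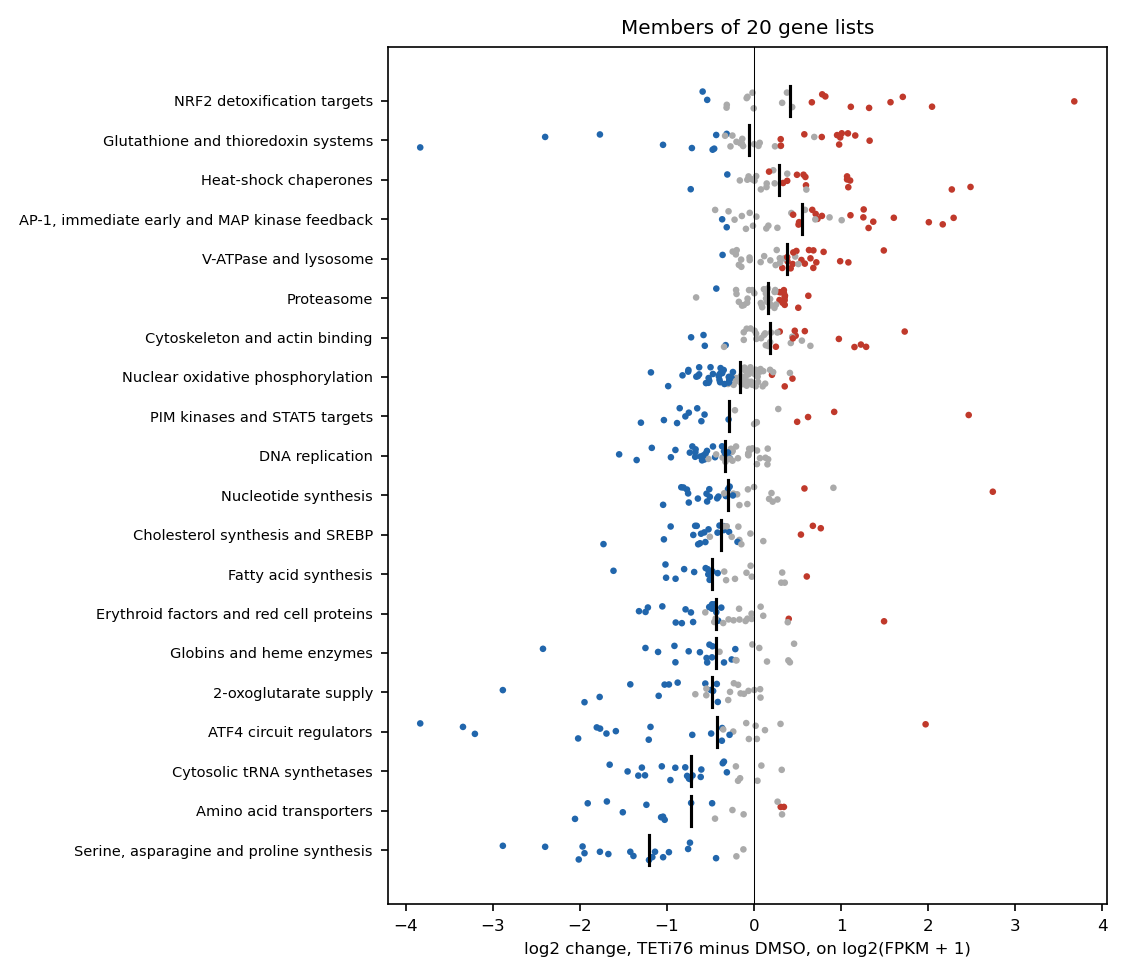
Log2 change under TETi76 (horizontal axis) of each tested member of 20 gene lists; red members were called higher, blue called lower, grey not called, and black bars are list medians. Detoxification, heat-shock, immediate early and lysosome lists lie mostly right of 0, and amino acid synthesis, transport and tRNA charging lie furthest left, with a median of -1.21 for serine, asparagine and proline synthesis.

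Several of the largest changes fell outside these lists. SLC20A1, which imports phosphate, was at 34.8 and 36.2 FPKM in DMSO and 136 and 132 FPKM under TETi76 (log2 change 1.88, SE 0.060). ID2, an inhibitor of helix-loop-helix factors, rose by 2.60 (SE 0.32), SERTAD1, a regulator of CDK4 and E2F activity, by 2.11 (SE 0.16) and the acyltransferase AGPAT9 by 2.03 (SE 0.16). PLCD1, a phospholipase C, went from 56.0 and 56.3 to 7.80 and 8.96 FPKM (log2 change -2.61, SE 0.093), with replicates close together in each group. The linker histone HIST1H1C went from 1238 and 1212 to 584 and 639 FPKM (log2 change -1.002, SE 0.063). Many histone messages lack a poly(A) tail, and histone genes share sequence, so this level is uncertain in polyadenylated libraries. HIST1H1C was among the 5 genes with the largest falls in FPKM. Others of these were abundant messages with small folds. The ribosomal gene RPL41 went from 4626 and 5068 to 3958 and 4062 FPKM (log2 change -0.27, SE 0.043), and RPS2 fell by 0.35 (SE 0.033). Beta-actin ACTB, of the cytoskeleton list, went the other way, from 1327 and 1409.7 to 1931 and 1881 FPKM (log2 change 0.48, SE 0.040), as did the chloride channel protein CLIC1, from 1001 and 934 to 1502 and 1483 FPKM.

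A remaining set of lists stood near the shares over all genes. Endoplasmic reticulum chaperones had 4 of 28 members higher and 6 lower, with HERPUD1, which serves protein quality control there, falling by 1.35 (SE 0.12). Leaving out a library gave 2 higher, or 1 for DMSO replicate 2, and quantile normalization gave 7. MYC partners and ribosome biogenesis genes had 5 of 36 higher and 7 lower, with 2 higher without any 1 of the 4 libraries. Among BCL2 family and death genes 3 of 24 rose and 3 fell, 1 rose without any 1 of the 4 libraries, and 1 fell without TETi76 replicate 1 or 2. The antiapoptotic MCL1 rose by 0.50 (SE 0.071). Interferon and antigen presentation genes had 3 of 21 higher and 2 lower, and HLA-E rose by 0.999 (SE 0.11). Their higher count was 1 without DMSO replicate 1, and 1 fell without any 1 of the 4 libraries. SR splicing factors stood above those shares with 7 of 20 higher and 2 lower, but leaving out any 1 library gave 1 to 3 higher, 1 for TETi76 replicate 2. Without DMSO replicate 2, 0 were lower, and 1 was lower without DMSO replicate 1 or TETi76 replicate 2.

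The comparison with ascorbate in both groups contrasted TETi76 with its absence in libraries that were in neither group of the first comparison. Both comparisons came from the same fit, with the same gene filter and the same estimate of spread for each gene. Their calls are therefore not independent. limma called 3842 of 12528 genes there (30.7%), 1609 higher (12.8%) and 2233 lower (17.8%). Of the 1204 genes that rose without ascorbate, 781 (64.9%) rose with it, and these were 48.5% of the genes that rose with it. Of the 1717 that fell, 1263 (73.6%) fell with it too, 56.6% of those that fell with it, and 27 genes were called in opposite directions. OSGIN1 went from 2.48 and 1.57 FPKM with ascorbate to 79.5 and 74.6 FPKM with TETi76 and ascorbate (log2 change 4.70, SE 0.17). SQSTM1 went from 65.1 and 66.9 to 576 and 572 FPKM (3.10, SE 0.075) and FTL from 3192 and 3303 to 10653 and 11054 FPKM (1.74, SE 0.036). CHAC1 went from 31.0 and 30.3 to 3.64 and 2.33 FPKM (-3.01, SE 0.17), and IDH2 changed by -1.19 (SE 0.080). Counts with ascorbate were 10 higher and 3 lower of 20 NRF2 detoxification genes, 16 lower of 19 amino acid synthesis genes, 28 lower of 48 replication genes and 15 lower of 24 globin and heme genes. In the ATF4 circuit they were 10 lower and 6 higher of 24.

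The difference between the TETi76 effects with and without ascorbate was itself tested, as an interaction. limma called 79 of 12528 genes (0.631%), 35 with a more positive effect with ascorbate (0.279%) and 44 with a more negative one (0.351%). That count was 0 without TETi76 replicate 1 and 0 without ascorbate replicate 2, where 1545 and 1560 genes had an unadjusted p under 0.05, against 1712 in the full fit. It was 3 without DMSO replicate 1, 12 without DMSO replicate 2, 26 without TETi76 replicate 2, 16 without ascorbate replicate 1, and 69 and 37 without replicates 1 and 2 of TETi76 with ascorbate. CTH had the largest positive difference among genes of at least 10 FPKM, 1.83 (SE 0.20, adjusted p = 0.0106). Its levels were 27.4 and 25.8 FPKM in DMSO, 3.73 and 4.79 with TETi76, 11.3 and 13.7 with ascorbate and 8.77 and 7.43 with both. PSAT1 differed by 1.24 (SE 0.12), with 81.8 and 75.4 FPKM in ascorbate and 25.7 and 23.3 FPKM with both, beside 155 and 156 in DMSO and 19.5 and 20.9 with TETi76. In both genes the ascorbate libraries lay below the DMSO libraries, and the libraries with TETi76 lay lowest in each pair of groups. SLC7A11 differed by 1.17 (SE 0.19, adjusted p = 0.0377), at 7.33 and 7.80 FPKM with ascorbate and 7.61 and 9.08 with both, where those groups overlapped. TMEM158, a membrane protein, differed by -1.36 (SE 0.18): it rose without ascorbate from 28.2 and 26.4 to 42.8 and 42.7 FPKM and fell with it from 49.6 and 49.1 to 25.6 and 33.5 FPKM.

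**Figure D4:**
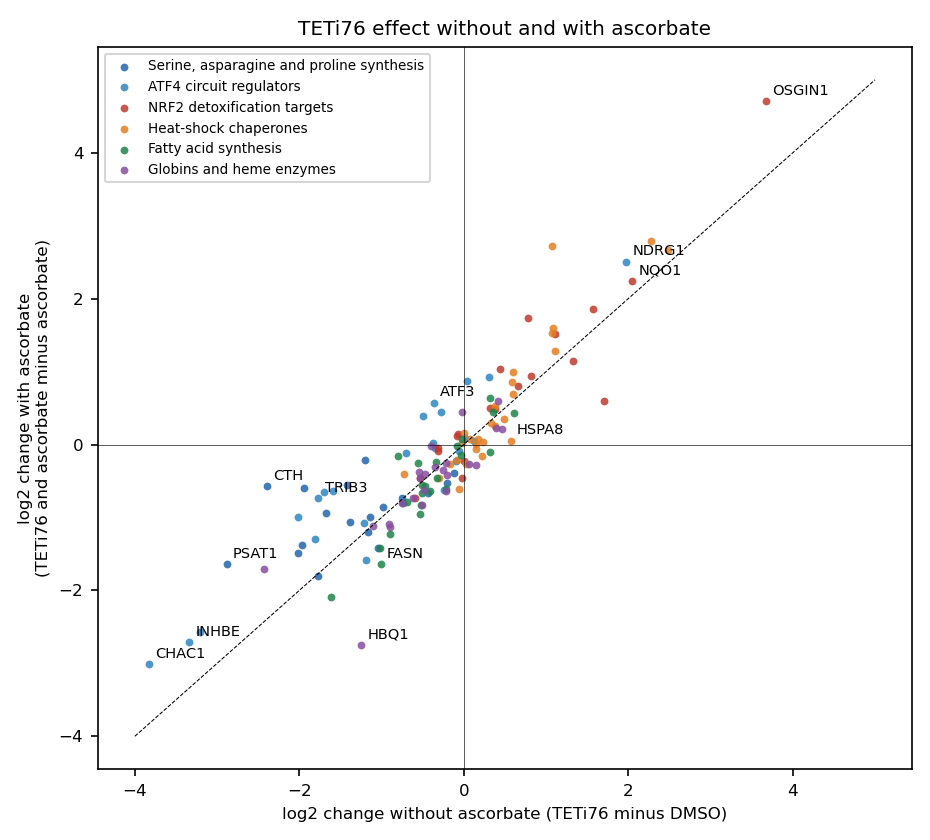
Log2 change under TETi76 with ascorbate (vertical axis) against that without (horizontal axis) for tested members of 6 gene lists, in libraries that the 2 comparisons do not share; the dashed line marks equal changes. Most members lie in the same quadrant in both, OSGIN1 stands at the upper right, CHAC1 and INHBE at the lower left, and CTH and PSAT1 lie above the line.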

How the data were processed

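RNA sequencing of K562 K01 cells was analysed from a table of 26171 entries in 10 libraries, which include the 2 K18 libraries. Per the submitters' processing notes, reads were aligned with STAR (version not stated) to hg19, and edgeR 3.24.3 and limma 3.38.3 were used. The quantifier is not given in the sources used here. The table is named for counts, but the deposited values are not whole numbers and follow transcript length, and they are treated as FPKM; fragments and reads cannot be told apart in them. All 10 single-library files equal the table. Entries named by a number (26) and short RNAs (2294) were left out, and 12528 genes with at least 1 FPKM in 2 libraries were tested on log2(FPKM + 1) with limma 3.58.1 (R 4.3.3; trend, robust), 5 groups in 1 fit over all 10 libraries, with Benjamini-Hochberg adjustment over all genes. A fold on this scale understates the change of low genes. The contrasts tested were TETi76 against DMSO, the same with ascorbate in both groups, and their difference.

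Over all genes used for depth, 82.4% of 5407 low values were whole multiples, within 0.02, of the gene's lowest shared value. That value was taken as 1 read. The scale in reads came from 71 single-transcript genes, so depth is approximate and no count test was run. Replicate numbers did not pair the libraries (correlation of deviations -0.006 between DMSO and TETi76). The 40 gene lists hold 1085 genes, 1083 of them in the table and 978 tested. The comparison, its members and the lists were chosen with earlier results of these data known.

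The genes named were, first, the 15 largest changes in each direction among called genes of at least 10 FPKM in the higher group without overlap. Then came the 5 largest rises and falls in FPKM, up to 6 called members of each list, TET1, TET2, TET3, IDH1 and IDH2, and the 3 largest interactions in each direction. These are 230 genes, and 47 more were chosen after their values were seen. Genes whose call was lost on leaving out a library are mostly given by counts, and a few named genes are not reported here. Alternatives covered the pseudocount, the filter, 3 scalings, a replicate block, separate fits and leaving out each library. The code was tested on simulated data. Promoter sequences are from RefSeq (GRCh38.p14), and their motifs were found with Python 3.11.15.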

Additional observations from a re-analysis of the deposited data

Results flagged for a closer look

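For each gene given here the effect of TETi76 with ascorbate differed from the effect without it by limma's interaction test at an adjusted p under 0.05, and the value printed is the first minus the second on the log2 scale. Of the 79 genes that passed, these 26 are those named for other reasons or by the rule for large interactions. Without TETi76 replicate 1 or ascorbate replicate 2, 0 genes passed. Without DMSO replicates 1 or 2, 3 and 12 passed.

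Part of the ATF4 and amino acid genes had more positive effects with ascorbate. The interaction was called in 6 of 24 ATF4 circuit genes, 3 of 19 synthesis genes, 3 of 17 transporters and 4 of 24 synthetase genes. CHAC1 (adjusted p = 0.189), DDIT4 (adjusted p = 0.096), INHBE (adjusted p = 0.504) and CBS (adjusted p = 0.959) did not pass. The differences were 1.24 for PSAT1, 0.729 for ASNS, 1.02 for SESN2, 1.03 for TRIB3, 0.95 for CEBPG and 0.94 for ATF3. They were 0.489, 0.629 and 0.633 for the tRNA synthetases AARS, CARS and WARS, and 0.639, 1.17 and 0.887 for the transporter chains SLC7A5, SLC7A11 and SLC3A2. CTH differed by 1.83 and IDH1 by 0.723. The libraries with ascorbate alone were lower than DMSO in some of these genes: PSAT1 was at 155 and 156 FPKM in DMSO and 81.8 and 75.4 FPKM in ascorbate, TRIB3 at 138 and 137 FPKM in DMSO and 73.3 and 76.0 FPKM in ascorbate, and ASNS at 183 and 191 FPKM in DMSO and 99.8 and 111 FPKM in ascorbate. With TETi76 the levels were 37.1 and 42.6 FPKM for TRIB3 without ascorbate and 48.2 and 41.0 FPKM with it. ASNS with TETi76 was at 59.2 and 56.8 FPKM without ascorbate and 52.2 and 56.1 FPKM with it. CDKN1A differed by 0.925, and it rose both without ascorbate (1.66) and with it (2.59).

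Other genes had more negative effects with ascorbate. The differences were -0.469 for FADS1, -0.632 for FASN and -0.818 for LSS. They were -0.935 for KLF1, -0.42 for HBE1, -0.629 for MYC and -0.517 for HSPA8. The transferrin receptor TFRC differed by -0.927: it was at 88.8 and 85.8 FPKM in DMSO and 104 and 99.3 FPKM under TETi76, against 117 and 112 FPKM in ascorbate and 69.2 and 69.7 FPKM with both. TMEM158 differed by -1.36, ZNF593 by -1.33 and the histone gene HIST2H2BC by -2.06.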

How the results depend on the processing

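Leaving out 1 library at a time gave 1669 to 1794 called genes for TETi76 against DMSO, 654 to 689 higher and 992 to 1117 lower. With all libraries there were 2921. The other settings gave 2412 to 2889. For the interaction, leaving out 1 library gave 0 to 69 called genes, 0 to 22 higher and 0 to 47 lower. A filter at an FPKM of 5 gave 136 (57 higher and 79 lower), and its own libraries alone gave 26 (13 and 13). Quantile normalization gave 27 lower and equal sums 28 lower. In the ascorbate comparison its own libraries alone gave 1003 higher genes. The cause of these moves was not tested. The replicate numbers did not pair the libraries, and the replicate block gave 2757 called genes for TETi76 against DMSO and 46 for the interaction (21 higher and 25 lower). Of the 277 genes named or chosen by rule, 33 to 40 lost their call on leaving out a library, 13 with quantile normalization and 12 in a fit on the 4 libraries alone. Direction reversed in 3 genes that did not pass: LYZ gave 0.011 with median-ratio scaling, 0.078 with quantile normalization, 0.037 with equal sums, and -0.12 to 0.10 on leaving out 1 library. On leaving out 1 library HBG2 gave -0.14 to 0.26, negative without DMSO replicate 1, and KEAP1 gave -0.074 to 0.25, negative without DMSO replicate 2. With 2 libraries in each group, changes smaller than their spread were not detectable.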
